A study of Homo sapiens with 2 samples.

Results

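The small noncoding RNAs described here are made by RNA polymerase III (Pol III): the 7SL RNA of the signal recognition particle (SRP), 7SK, the Y RNAs, the RNAs of RNase MRP and RNase P, and vault RNA. The list held 10 entries, given as 3 Ensembl gene IDs and 7 symbols, among 57820 gene IDs in all. Of these, 8 were matched to a deposited row and 6 had at least 1 read. The same 6 reached a mean of 1 CPM over both libraries, where CPM is the read count relative to the scaled library size. RNY3 and RNY4 were matched and had 0 reads, and the symbols RNY5 and RPPH1 matched no row in the name tables used. The entries were chosen from earlier results on their read counts and ratios in the libraries described next, so those ratios are given as a description and support nothing.

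The cells were HEK293T, a widely used line derived from human embryonic kidney. They had been treated with SRα siRNA (1 library) or with control siRNA (1 library). SRα is the alpha subunit of the SRP receptor in the membrane of the endoplasmic reticulum and is encoded by SRPRA. The comparison asks how RNA levels differ between cells treated with SRα siRNA and cells treated with control siRNA. Replicates are lacking, so no difference was tested between conditions. Each interval below is a 95% interval for counting error alone. Without molecular identifiers, reads are not independent molecules. In bulk RNA, fewer cells with an RNA and less of it per cell cannot be told apart.

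7SL is the scaffold of SRP, which binds signal sequences on the ribosome and docks at the receptor that SRα is part of. 7SK holds the transcription elongation factor P-TEFb inactive, and Y RNAs bind the Ro60 and La proteins. RMRP is the RNA of RNase MRP, which acts on ribosomal RNA precursors, and RPPH1 is the catalytic RNA of RNase P, which trims the leader of tRNA precursors. Vault RNAs lie in or beside the large vault particle. Pol III transcripts end in a run of U and most carry no long poly(A) tail, while the library kit named in the labels selects polyadenylated RNA. A count is therefore of reads that came through that selection and is no measure of the RNA's amount in the cell.

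Gene reads numbered 3896721 in the SRα siRNA library and 2445200 in the control siRNA library. Alignments that were not unique made up 76.5% of all entries in the SRα siRNA library and 79.6% in the control siRNA library, and such alignments were not counted for any gene. A count of 3 reads, taken as the one-sided limit that a count of 0 allows, was 0.780 CPM in the SRα siRNA library and 1.21 CPM in the control siRNA library. SRPRA, the gene that the SRα siRNA targets, had 449 reads in the SRα siRNA library, against 507 in the control siRNA library. Its CPM was 117 in the SRα siRNA library and 205 in the control siRNA library, a log2 ratio of −0.81 (−0.998 to −0.625).

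How much of each RNA can be counted depends on how much of its sequence is its own. A read can be placed on one of the 7SL genes RN7SL1, RN7SL2 and RN7SL3 only if it covers a base that differs between them. Their GENCODE 29 transcripts were compared. RN7SL1 and RN7SL2 differed by 4 substitutions and 1 gap over 300 aligned columns (98.3% identity). RN7SL1 and RN7SL3 differed by 7 substitutions, and RN7SL2 and RN7SL3 by 11 substitutions and 1 gap. Windows of 75 bases were then searched on both strands in the transcripts of other GENCODE 29 genes, leaving out genes that overlap the RNA at its own locus. An exact copy was found for 77.3% of the windows of RN7SL1, 84.1% of those of RN7SL2 and 21.8% of those of RN7SL3. At 30 bases the shares were 99.3% for RN7SL1, 95.9% for RN7SL2 and 74.4% for RN7SL3. 7SL is the ancestor of Alu repeats, which lie in many messages. RN7SL1 shared a 30-base window with 992 other genes and RN7SL2 with 1057. Copies in the genome outside annotated transcripts were not searched, so these shares are lower limits.

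RNY1, RNY4, a vault RNA and the end of 7SK are shown to mark which of their bases can be told from genes elsewhere. Sequences are those of the GENCODE 29 transcripts, written 5′ to 3′. Capitals mark bases that lie in at least 1 window of 30 bases with no exact copy in the transcripts of a gene at another locus. Genes that overlap an RNA at its own locus were left out, such as a second 7SK entry given below. The 7SK stretch runs from base 206 to base 331 of the transcript.

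RNY1: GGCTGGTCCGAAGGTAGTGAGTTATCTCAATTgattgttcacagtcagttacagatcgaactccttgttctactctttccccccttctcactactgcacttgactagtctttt
RNY4: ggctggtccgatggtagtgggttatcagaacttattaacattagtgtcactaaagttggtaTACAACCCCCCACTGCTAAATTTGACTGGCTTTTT
VTRNA1-1: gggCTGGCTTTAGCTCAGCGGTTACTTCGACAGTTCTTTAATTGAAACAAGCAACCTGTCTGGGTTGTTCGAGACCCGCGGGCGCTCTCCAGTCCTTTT
7SK: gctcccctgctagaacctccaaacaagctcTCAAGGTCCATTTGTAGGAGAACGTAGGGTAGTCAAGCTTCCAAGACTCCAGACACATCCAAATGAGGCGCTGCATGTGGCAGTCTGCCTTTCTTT

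RNY1 had 32 of its 113 bases in such a window, at its 5′ end. RNY4 had 35 of 96 bases, at its 3′ end, and RNY3 had 0 of 102. All 96 such bases of 7SK, of 331 in all, lay in the stretch shown. VTRNA1-1 had 96 of 99 bases in such a window, as had all 268 bases of RMRP and all 333 of RPPH1. Other GENCODE 29 entries at the same locus share 264 bases of RMRP and all of RPPH1, and these were not searched. At 75 bases no window of RNY1 or RNY4 had a copy, against 64.3% of the windows of RNY3 and 63.4% of those of 7SK. The length of the reads is not given in the sources used here.

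**Figure D1:**
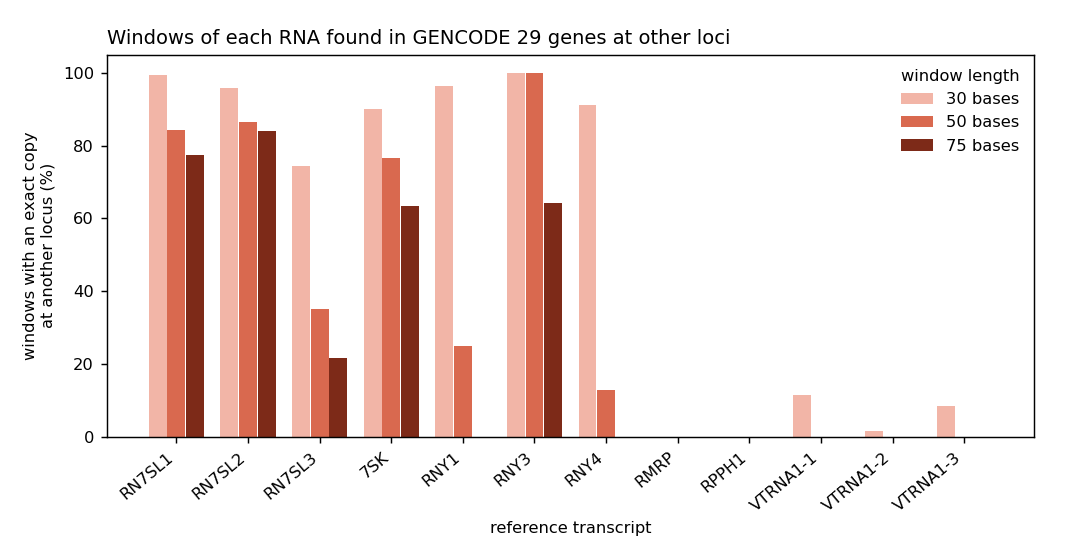
Bars give, for each reference transcript, the percentage of its windows of 30, 50 and 75 bases that have an exact copy in the transcripts of a GENCODE 29 gene at another locus. RNY3 stands at 100% for 30 and 50 bases, and RMRP and RPPH1 stand at 0% for all 3 lengths.

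The 2 entries for 7SL had the highest ratios of the 4 listed entries that reached 50 CPM. ENSG00000265150 was listed as RN7SL2, a name that no table used here gives. It had 1120 reads in the SRα siRNA library and 377 in the control siRNA library. Its CPM was 291 (274 to 309) in the SRα siRNA library, against 152 (137 to 168) in the control siRNA library. The intervals lay apart, and the log2 ratio was 0.93 (0.77 to 1.11), or 1.91-fold (1.70 to 2.15).

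ENSG00000258486, listed as RN7SL1 and likewise not named in the tables, had 414 reads in the SRα siRNA library and 226 in the control siRNA library. Its CPM was 108 (97.5 to 119) in the SRα siRNA library and 91.3 (79.8 to 104) in the control siRNA library, so the 2 intervals overlapped. The log2 ratio was 0.24 (0.00 to 0.48), or 1.18-fold. The pair thus differed in size of change. The transcripts of RN7SL1 and RN7SL2 compared above stand under other IDs, so how alike the sequences of this pair are was not tested. The difference between the log2 ratios of the pair was 0.70, or 1.62-fold.

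That difference can be read inside each library, where scaling has no part. ENSG00000265150 held 73.0% (70.7 to 75.2) of the reads of both listed 7SL entries in the SRα siRNA library, against 62.5% (58.5 to 66.4) in the control siRNA library. It had 2.71 reads for each read of ENSG00000258486 in the SRα siRNA library and 1.67 in the control siRNA library. Together the 2 entries had 1534 reads in the SRα siRNA library, 0.0394% of gene reads, against 603 reads, 0.0247%, in the control siRNA library. The log2 ratio of that sum was 0.71 (0.57 to 0.85). The share of alignments that were not unique differed between the libraries as well, as given above, and its part in the result was not tested.

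7SK, deposited under ENSG00000202198, had few reads. It had 32 reads, or 8.32 CPM (5.69 to 11.7), in the SRα siRNA library, against 7 reads, or 2.83 CPM (1.14 to 5.82), in the control siRNA library. The 2 intervals overlapped only at their ends. The log2 ratio was 1.51 (0.35 to 2.98), the largest of the list with the widest interval of it, and a ratio of 2.84 has limits of 1.28 and 7.90. GENCODE 29 holds a second entry, RN7SK, that shares 328 of the 331 bases on the same strand, and it has no row here.

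RNY1 was the most read of the list and stood 6th of all genes by mean CPM. It had 15809 reads, 0.406% of gene reads, in the SRα siRNA library, against 11626 reads, 0.476%, in the control siRNA library. Its CPM was 4109 (4045 to 4173) in the SRα siRNA library and 4695 (4610 to 4781) in the control siRNA library, so it was lower after SRα siRNA. The log2 ratio was −0.19 (−0.23 to −0.16), a ratio of 0.875. RNY3 and RNY4 had 0 reads in both libraries, which allows up to 0.780 CPM in the SRα siRNA library and up to 1.21 CPM in the control siRNA library by the one-sided limit of 3 reads. The upper ends of their 2-sided Poisson intervals are 0.959 CPM in the SRα siRNA library and 1.49 CPM in the control siRNA library. RNY1 and RNY3 are 72.6% identical, RNY1 and RNY4 63.7%, and RNY3 and RNY4 65.1%. Y1, Y3 and Y4 RNAs share the stem that Ro60 binds. Neither RNY1 nor RNY4 had a copied window of 75 bases, while most windows of 30 bases had a copy in both. The read length is not given and copies outside annotated transcripts were not searched. Why RNY4 had no read was therefore not tested.

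RMRP had 4303 reads in the SRα siRNA library and 2720 in the control siRNA library. Its CPM was 1118 (1085 to 1152) in the SRα siRNA library and 1098 (1058 to 1140) in the control siRNA library, and the intervals overlapped over most of their width. The log2 ratio was 0.03 (−0.04 to 0.10), and its sign changed with scaling by library totals or by totals without mitochondrial and the 10 most-read genes, where it was −0.01. Of the listed entries with reads, RMRP had the ratio closest to 0. Within each library it held 21.4% (20.8 to 22.0) of the reads of RMRP and RNY1 after SRα siRNA, against 18.96% (18.3 to 19.6) after control siRNA.

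RPPH1 itself matched no row. The deposited entry ENSG00000259001, named AL355075.4 in GENCODE 29, covers all 333 bases of RPPH1 on the same strand within its own 638 bases. It was taken up after its values were seen, and its reads cannot be told apart from those of RPPH1. It had 11530 reads, or 2997 CPM (2942 to 3052), in the SRα siRNA library, against 8484 reads, or 3426 CPM (3354 to 3500), in the control siRNA library. The log2 ratio was −0.19 (−0.23 to −0.15). To 2 decimals this was the log2 ratio of RNY1, and the entry stood 14th of all genes by mean CPM.

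The vault RNAs had few reads and intervals that spanned 0. VTRNA1-1 had 82 reads, or 21.3 CPM (16.95 to 26.5), in the SRα siRNA library, against 62 reads, or 25.04 CPM (19.2 to 32.1), in the control siRNA library. Its log2 ratio was −0.23 (−0.73 to 0.27). VTRNA1-2, which was not on the list, had 61 reads (15.9 CPM) in the SRα siRNA library and 38 reads (15.4 CPM) in the control siRNA library, with a log2 ratio of 0.05 (−0.56 to 0.67). VTRNA1-3, likewise not on the list, had 39 reads (10.1 CPM) in the SRα siRNA library and 29 reads (11.7 CPM) in the control siRNA library, with a log2 ratio of −0.21 (−0.94 to 0.54). The 3 transcripts are 81.8% to 87.8% identical to each other. No difference between the libraries was detectable for any of the 3 at this depth.

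**Figure D2:**
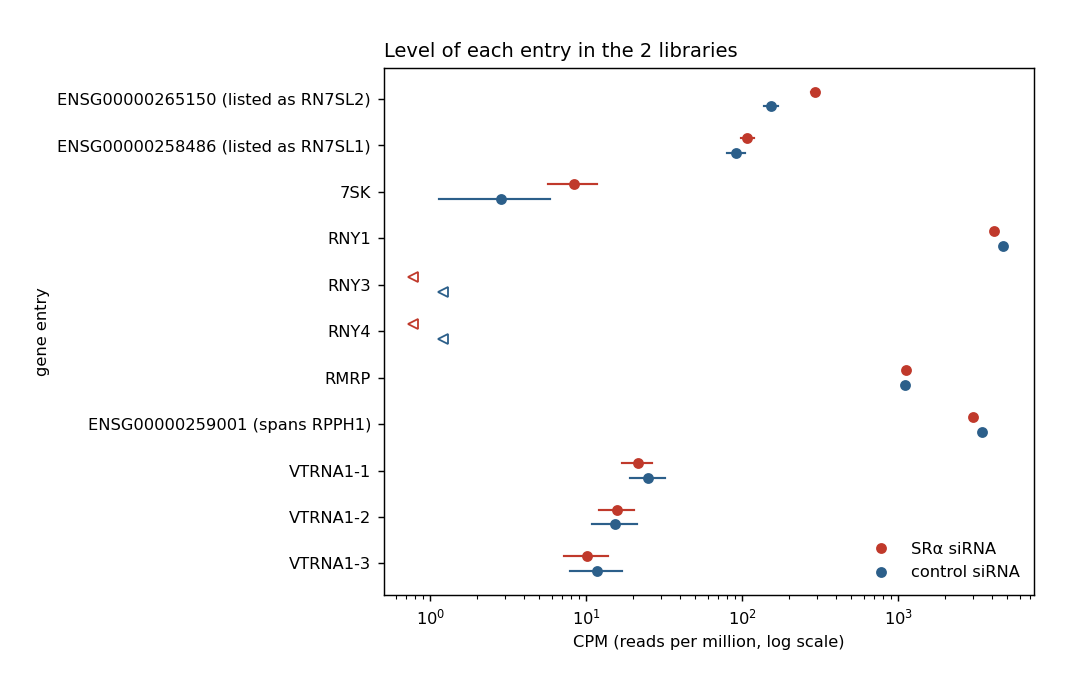
Points give the CPM of each entry on a log axis in the SRα siRNA library (red) and the control siRNA library (blue), with exact 95% Poisson intervals, and open triangles give the 3-read limit where an entry had 0 reads. RNY1 stands highest at 4109 CPM (SRα siRNA) and 4695 CPM (control siRNA), and the 2 points of ENSG00000265150 stand apart at 291 CPM (SRα siRNA) and 152 CPM (control siRNA).

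Levels of different genes can be set side by side only per length, here the full length of the GENCODE 29 transcript where there was one. RNY1 had 36360 CPM per kilobase in the SRα siRNA library and 41550 in the control siRNA library. Of the entries with a length, RMRP followed with 4173 CPM per kilobase in the SRα siRNA library and 4099 in the control siRNA library. No length was taken for the listed 7SL entries or the entry that spans RPPH1, so they have no place in this order. The vault RNAs lay far below, between 114 and 215 CPM per kilobase in the SRα siRNA library and between 132 and 253 in the control siRNA library. Per full length 7SK came last of those with reads, at 25.1 CPM per kilobase in the SRα siRNA library and 8.54 in the control siRNA library. The order of RNY1, RMRP, VTRNA1-1, VTRNA1-2, VTRNA1-3 and 7SK was the same in both libraries. VTRNA1-1 and VTRNA1-2, and VTRNA1-2 and VTRNA1-3, are neighbours whose counting intervals overlapped in both libraries, while the intervals of the other neighbours lay apart. The order was not computed per base that has no copy, and 7SK has 96 such bases of 331 against 89 of 89 for VTRNA1-3. RNY3 and RNY4 were at 0.

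All matched entries together had 21760 reads, 0.558% of gene reads, in the SRα siRNA library, against 15018 reads, 0.614%, in the control siRNA library. The log2 ratio of the sums was −0.10 (−0.13 to −0.07). RNY1 made up most of that sum, so its sign is that of RNY1 and opposite to that of 7SL and 7SK. With the entry that spans RPPH1 added, the sums were 33290 reads, 0.854% of gene reads, in the SRα siRNA library and 23502 reads, 0.961%, in the control siRNA library.

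Of the 6 listed entries with at least 1 CPM, ENSG00000265150 and 7SK were higher by 1.5-fold or more after SRα siRNA, where 6.55% of all 12747 such genes were. None was lower by 1.5-fold or more, where 6.97% of all genes were. 7SK alone was higher by 2-fold or more, where 2.15% of all genes were. The list was drawn up with these ratios known, so nothing is read from these counts. Of the 4 listed entries with a mean of at least 50 CPM, ENSG00000265150 was higher by 1.5-fold or more, where 0.175% of 4007 genes were. None was lower by 1.5-fold or more, where 0.0499% were. Among those 4007 genes ENSG00000265150 ranked 3rd from the highest log2 ratio and ENSG00000258486 ranked 296th. RNY1 ranked 268th from the lowest and the entry that spans RPPH1 264th. The central 90% of these genes lay between −0.22 and 0.27, with a median of 0.04.

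**Figure D3:**
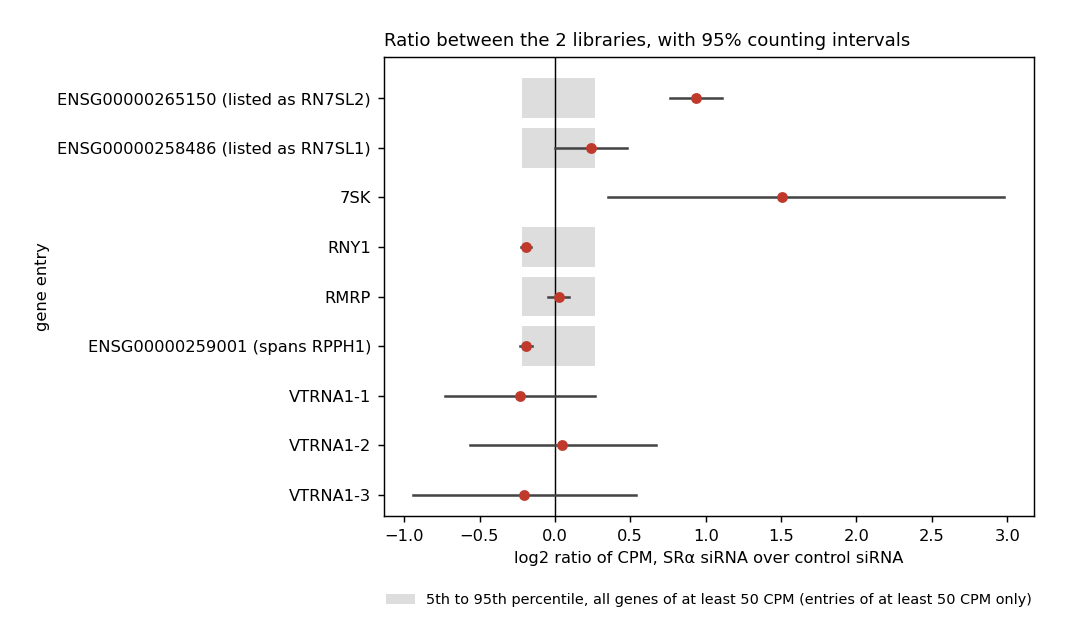
Points give the log2 ratio of CPM, SRα siRNA over control siRNA, with its 95% counting interval, and the grey band spans the 5th to 95th percentile of all genes with at least 50 CPM. The band is drawn only for entries of that level: ENSG00000265150 at 0.93 lies right of it, and RNY1 and the entry that spans RPPH1 both lie at −0.19 inside it.

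**Figure D4:**
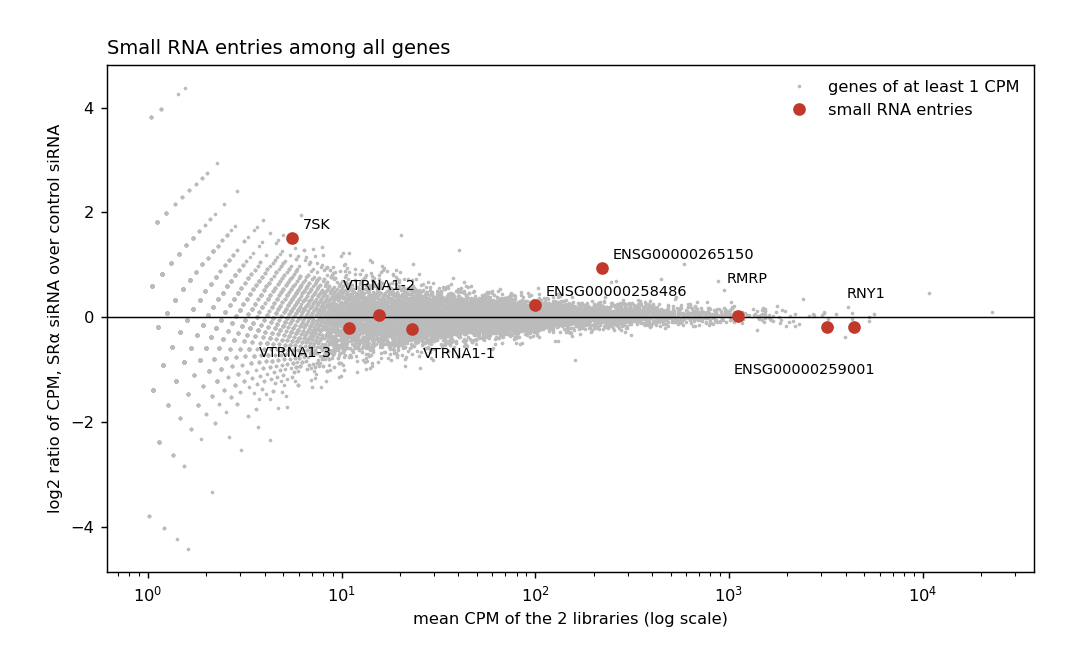
Each grey point is a gene with a mean of at least 1 CPM, at its mean CPM (log axis) and its log2 ratio, SRα siRNA over control siRNA, and red points are the small RNA entries. The spread of ratios narrows as reads increase, and ENSG00000265150 at a mean of 222 CPM stands above most genes of its level while 7SK at 5.57 CPM lies where ratios scatter widely.

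The ratio of ENSG00000265150 was set against those of the other entries. Its log2 ratio exceeded that of RNY1 by 1.13 (2.19-fold), of RMRP by 0.91 (1.88-fold), of the entry that spans RPPH1 by 1.13 and of VTRNA1-1 by 1.17. Against 7SK the difference was −0.62, and the log2 ratio of ENSG00000265150 lies inside the interval of 7SK.

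Other copies of these RNAs, looked for by name alone, added few reads. RN7SL3 matched no row by name. IDs without a name, as ENSG00000265150 is, could not be searched for copies. Of 602 entries with RN7SL names, 12 had a read, with 13 reads in the SRα siRNA library and 6 in the control siRNA library. Of 289 with RN7SK names, 5 had a read, with 5 reads in the SRα siRNA library and 1 read in the control siRNA library. Names of the Metazoa_SRP kind had 14 entries and no read. Y RNA copies were 776 entries, of which 53 had a read and 11 reached 1 CPM. They summed to 150 reads in the SRα siRNA library and 94 in the control siRNA library, a log2 ratio of 0.04 (−0.34 to 0.43). The RN7SL names thus held few reads beside ENSG00000265150, and the Y RNA copies few beside RNY1.

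Of the other Pol III products looked for, few entries had reads beyond the vault RNAs. The 5S ribosomal RNA names, 506 entries, had 169 reads in the SRα siRNA library and 121 in the control siRNA library, a log2 ratio of −0.15 (−0.50 to 0.20). RNA5SP132, a 5S pseudogene, was their only entry with a mean of at least 5 CPM, with 25 reads in the SRα siRNA library and 21 in the control siRNA library, a log2 ratio of −0.38 (−1.28 to 0.53). The U6 names, 1311 entries, had 29 reads in the SRα siRNA library and 14 in the control siRNA library, a log2 ratio of 0.40 (−0.55 to 1.45). U6 is a spliceosomal RNA that Pol III makes. Of 18 other Pol III RNAs listed by symbol, 13 were matched and VTRNA1-2 and VTRNA1-3 alone reached 1 CPM. RNU6-1 and RNA5S9 had 0 reads in the SRα siRNA library and 1 read in the control siRNA library. RNU6-2, RNU6-7, RNU6-8, RNU6-9, RNU6ATAC, BCYRN1, VTRNA2-1, VTRNA3-1P and RNA5S1 had 0 reads in both libraries.

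The messages of the proteins that bind these RNAs had log2 ratios smaller in size than ENSG00000265150, where they reached a mean of 1 CPM. Not all were counted well enough to be called less changed. The intervals ran from −1.26 to 0.85 for SRP9 and from −1.80 to 2.39 for SRP19, both SRP proteins with few reads. The vault protein MVP fell under that limit and had a larger log2 ratio, 1.09 (−1.97 to 6.99). The highest and lowest genes of a list are named below after their values were seen. All 6 SRP proteins were measured, with a mean of at least 1 CPM. Of these, 4 had a log2 ratio above 0 and 2 below, with a median of 0.07, beside 6554 above, 6193 below and a median of 0.01 over all measured genes. SRP54, the subunit that binds signal sequences, had 455 reads in the SRα siRNA library and 286 in the control siRNA library, a log2 ratio of 0.03 (−0.18 to 0.25). SRPRB, the beta subunit of the receptor, had a log2 ratio of −0.07 (−0.23 to 0.09). SRPRA was the only measured gene of these partner lists past 1.5-fold in either direction.

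The 9 genes of the 7SK particle and P-TEFb had 5 log2 ratios above 0 and 4 below, with a median of 0.01 and a range of −0.13 to 0.47. LARP7, which holds the 3′ end of 7SK, had 334 reads in the SRα siRNA library and 184 in the control siRNA library, a log2 ratio of 0.22 (−0.04 to 0.49). CCNT2, a cyclin of P-TEFb, was the highest at 0.47 (−0.02 to 0.997). MEPCE, which caps the 5′ end of 7SK, had a log2 ratio of 0.01 (−0.28 to 0.29).

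All 6 measured genes for Y RNA and La binding had log2 ratios above 0, with a median of 0.12, while that of RNY1 was below 0. Beside them, 6554 of all 12747 measured genes lay above 0, and genes with at least 50 CPM had a median of 0.04. The intervals of RO60, PUF60 and PTBP1 spanned 0. RO60, the ring protein that holds Y RNAs, had 729 reads in the SRα siRNA library and 431 in the control siRNA library, a log2 ratio of 0.12 (−0.05 to 0.30). SSB, which encodes La, the binder of the 3′ U run, had 1804 reads in the SRα siRNA library and 1070 in the control siRNA library, a log2 ratio of 0.12 (0.01 to 0.23). YBX1, an RNA-binding protein, was the highest of the list at 0.42 (0.15 to 0.70).

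Of 10 measured proteins of RNase P and RNase MRP, 8 had a log2 ratio above 0 and 2 below, with a median of 0.13. Over all measured genes 6554 lay above 0 and 6193 below. POP1, a large subunit of both enzymes, had 271 reads in the SRα siRNA library and 160 in the control siRNA library, a log2 ratio of 0.12 (−0.16 to 0.42). RPP25L was the lowest of the list, with a log2 ratio of −0.35 (−0.59 to −0.11). MVP, the major vault protein, had 4 reads in the SRα siRNA library and 1 in the control siRNA library and fell under the limit of 1 CPM. PARP4 and TEP1, the other vault proteins, had log2 ratios of −0.15 and −0.07, with intervals that spanned 0.

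Every measured gene of the machinery that makes these RNAs had a ratio within 1.5-fold. Several of their intervals reached past 1.5-fold, those of GTF3A and TBP among them, so not all can be called unchanged. Of 18 Pol III subunits, 10 had a log2 ratio above 0 and 8 below, with a median of 0.03 and a range of −0.41 to 0.26. POLR3A, the largest subunit, had 597 reads in the SRα siRNA library and 404 in the control siRNA library, a log2 ratio of −0.07 (−0.26 to 0.11). Of 19 initiation factors and regulators, 11 lay above 0 and 8 below, with a median of 0.05. GTF3A, the factor that binds 5S genes, was the highest at 0.48 (0.15 to 0.81), and TBP, the TATA-binding protein, was the lowest at −0.38 (−0.75 to −0.01). Of 15 measured genes for 3′ end processing and decay of small RNAs, 13 lay above 0 and 2 below, with a median of 0.11. Most of their intervals spanned 0, and over all measured genes 6554 lay above 0 and 6193 below. USB1, which trims the tail of U6, was the highest of the 15 at 0.54 (0.00 to 1.11).

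**Figure D5:**
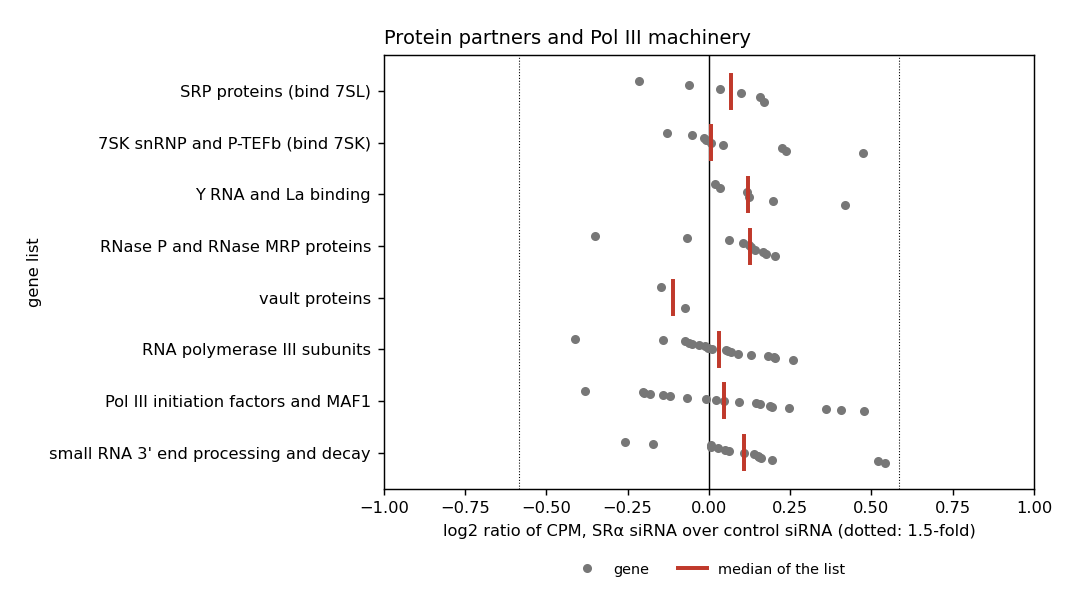
Grey points give the log2 ratio of CPM, SRα siRNA over control siRNA, of each measured gene in 8 lists of binding proteins and Pol III machinery, red lines give list medians and dotted lines mark 1.5-fold. No point lies past a dotted line, and the medians lie between −0.11 and 0.13.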

How the data were processed

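Per the labels' protocols, TRIzol was used to extract RNA and the TruSeq Stranded mRNA kit to prepare libraries. The authors deposited raw read counts by Ensembl gene ID, 1 file per library. Per the submitters' processing notes, cutadapt, STAR 2.5.2b and build hg19 were used. The program behind the counts, its use of strand and its annotation are not given in the sources used. Reads of overlapping or antisense genes therefore cannot be told apart. The files' 5 summary lines were kept out of library sizes. Names came from a gene name table and GENCODE 29 by gene ID (52338 of 57820 IDs), and no coordinates are given.

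Libraries were scaled by TMM (edgeR 4.0.16, R 4.3.3). A log2 ratio is SRα siRNA over control siRNA after adding 0.5 reads in proportion to depth, with an exact Clopper-Pearson interval of both counts given their sum. CPM has exact Poisson intervals. Sequences came from GENCODE 29 transcripts, with identity from global alignment (Biopython 1.88), and some sequences are not reported here. The members and lists were chosen with earlier results of these data known. Named were all members, related Pol III entries with a mean of at least 5 CPM, partner genes past 1.5-fold, the defining subunit of each list, and list extremes. SRP19 was named for its wide interval. Other scalings tried were library totals, upper quartile factors, the size factors of DESeq2 1.42.0, thinning to equal totals, totals without mitochondrial and the 10 most-read genes. A prior of 2 was also tried, as were no filter and a filter of 5 CPM. Interval coverage was tested on data simulated with counting error alone, which checks the calculation and no other spread.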

Additional observations from a re-analysis of the deposited data

How the results depend on the processing

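No paired analysis was possible because each group has 1 library. Every log2 ratio given for a listed entry kept its sign under the scalings and the prior tried, except RMRP, whose interval spans 0 and whose ratio lay between −0.01 and 0.03. ENSG00000265150 lay between 0.90 and 0.94, ENSG00000258486 between 0.20 and 0.26, 7SK between 1.37 and 1.73, VTRNA1-1 between −0.27 and −0.17, and the entry that spans RPPH1 between −0.23 and −0.19. RNY1 was −0.23 with library totals, just past its counting interval. The median of all measured genes moved between −0.03 and 0.01. The count of genes higher by 2-fold or more after SRα siRNA, 274, became 2872 with no filter and 32 with a filter of 5 CPM. The count lower by 2-fold or more, 328, became 2029 with no filter, 30 with a filter of 5 CPM and 178 with a prior of 2. The filters change how many genes are counted, and the prior pulls low counts toward a ratio of 1. Depth limits 7SK and the vault RNAs most, with 7 to 82 reads in a library. Counts of reads with several alignments were not analysed here, so the levels of RNAs with near-identical copies are those of their countable bases.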

Other observations

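Other classes of short or unpolyadenylated RNA in the same libraries give a scale for these entries. Of 15 matched spliceosomal RNAs that RNA polymerase II makes, 8 had at least 1 CPM, with 4 log2 ratios above 0 and 4 below and a median of −0.01. Their highest was RNU4-2, part of the U4 particle, with 4182 reads in the SRα siRNA library and 1666 in the control siRNA library, a log2 ratio of 0.69. RNU4-1, the most read of them, had 47958 reads in the SRα siRNA library and 22424 in the control siRNA library. Its log2 ratio was 0.46 (0.44 to 0.48). Of 58 clustered histone genes, 29 were measured, with a median log2 ratio of 0.02 and 1 gene higher by 1.5-fold or more after SRα siRNA. Of 495 snoRNA and Cajal body RNA names, 89 were measured, with a median of 0.02 and a wide range, from −2.38 to 3.82. Of these, 8 were higher and 12 lower by 1.5-fold or more after SRα siRNA, beside 6.55% of all measured genes higher and 6.97% lower. RNU4-1 and RNU4-2 were named after their values were seen.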
